A study of Caenorhabditis elegans with 4 samples.

Results

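The regions described here are the broad binding regions of UNC-62 in Caenorhabditis elegans embryos, chosen by the measured width of each entry: every region of the series list that was 800 bp wide or wider. They numbered 416 of 7964 regions (5.22%), and they made up 495 of the 2925 kb that the list covers (16.9%). The remaining 7548 regions, all under 800 bp, are called narrower regions below. The width limit is the rule that chose the members, so widths, q-values and overlaps with the replicates are given as descriptions without a test.

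UNC-62 is the C. elegans homeodomain protein of the MEIS/Homothorax class. Proteins of this class bind DNA together with PBC-class homeodomain partners and often with Hox proteins, and such complexes help to set cell fates along the body axis. In C. elegans, unc-62 is required in the embryo and later acts in several tissues, among them the epidermis, the nervous system and the intestine. A binding region in a ChIP-seq list is a stretch in which DNA fragments recovered with the protein exceed a background. A wide one can hold a single stretch of dense signal or several sites too close together to be listed apart.

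Chromatin immunoprecipitation followed by sequencing was carried out on hermaphrodite embryos of the strain OP600, which carries the unc119(ed3) mutation and the transgene wgIs600, made of unc-62 joined to TY1, EGFP and FLAG tags, and of unc119. The transgene was introduced by bombardment and outcrossed, and tagged protein was collected with an antibody against GFP, so binding of untagged protein was not measured and all libraries share this genotype. The study has 2 UNC-62 ChIP replicates and 2 Input replicates from animals kept at 20 °C and fixed in 2% formaldehyde, and 3 region lists were analysed, 1 for each ChIP replicate and 1 for the series. The Input samples enter no comparison, and nothing states whether the replicates came from separate cultures.

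Each listed region has a start, an end on the WormBase WS220 build and 1 unnamed value, which was read as a q-value, an assumption. A smaller q-value is called stronger. The lists held 7782 regions in replicate 1 and 3138 in replicate 2, and the largest q-value was 0.00999 for replicate 1, 0.000998 for replicate 2 and 0.000997 for the series. Read counts are absent from all lists, so sequencing depth is unknown and no value carries an error from read counting. The 95% intervals below are exact Clopper-Pearson intervals over regions. They treat regions as independent, which neighbouring regions are not.

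In no list were any neighbouring regions 200 bp apart or closer. The series list and replicate 1 had a smallest gap of 201 bp, and replicate 2 one of 203 bp. Separate sites closer than this therefore do not appear as separate regions, and a broad region is defined here as an unbroken entry of the list, not as a single binding site. The step that produced this spacing is not given in the sources used here.

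Broad regions were mostly little wider than the limit. Their median width was 1001.5 bp, with quartiles of 885.5 and 1243.75 bp. From 800 to 999 bp there were 206, from 1000 to 1499 bp 150, from 1500 to 1999 bp 37, and at 2000 bp or more 23. Just inside the limit lay X 14562175 to 14562974 (800 bp), I 4328832 to 4329632 (801 bp) and V 13402405 to 13403206 (802 bp). Just outside it were I 10585047 to 10585845, II 7639595 to 7640393 and V 6203835 to 6204633, all 799 bp wide. The members on either side of the limit differ by a few bases, so the limit is a range and not a boundary between kinds of region.

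Width and strength went together in the series list. With the list sorted by q-value and divided into 10 steps of equal size, 265 of the 416 broad regions (63.7%) fell in the strongest step. Of the 797 regions in that step, 33.2% were broad, compared with 8.29% of step 2 and 0.126% of step 10. The median q-value of broad regions was 3.71e-34, against 2.72e-07 for narrower regions. Of the 50 strongest regions of the list 40 were broad, and of the 100 strongest 72 were. A wide region gathers more reads than a narrow one at the same density, so these values do not compare the density of binding.

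The replicates were then set against each broad region, with an overlap of at least 1 bp counted as a match. Of the 416 broad regions, 359 were overlapped in both replicates (86.3%, 95% interval 82.6 to 89.5%), against 2564 of 7548 narrower regions (33.97%, interval 32.9 to 35.1%) and 36.7% of all regions. Replicate 1 overlapped 410 broad regions (98.6%), against 84.6% of all regions. Replicate 2 overlapped 362 (87.0%), against 37.9% of all regions. A further 51 broad regions were found in replicate 1 alone (12.3%, against 47.9% of all regions), 3 in replicate 2 alone (0.721%, against 1.24%) and 3 in neither (0.721%, against 14.2%). The series list may have been made from the replicates, so this overlap is not independent of it.

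Because broad regions were the stronger ones, the same shares were set out by strength. In the strongest step every broad region (265 of 265) and every narrower region (532 of 532) was overlapped in both replicates. In step 2 the share was 87.9% of 66 broad regions, against 98.1% of 730 narrower regions. In step 3 it was 55.3% of 38 broad regions, against 78.4% of 759 narrower regions. Step 4 gave 43.8% of 16 broad and 50.9% of 780 narrower regions. Step 5 gave 20.0% of 10 broad and 26.97% of 786 narrower regions. In steps 6 to 10 together the order was the other way, with 28.6% of 21 broad regions (6) against 2.83% of 3961 narrower regions. The sets differ in strength there, with a median q-value of 3.05e-06 in broad and 4.4e-05 in narrower regions. Step 6 alone gave 12.5% of 8 broad and 10.9% of 789 narrower regions, and step 7 gave 14.3% of 7 and 2.15% of 789. Some of the 6 are regions described below that were stronger in each replicate than in the series list. In steps 2 to 5 the higher shares thus stood with the narrower regions. In the joined weak steps they stood with the few broad ones, but not at like strength. The differences were not tested.

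**Figure D1:**
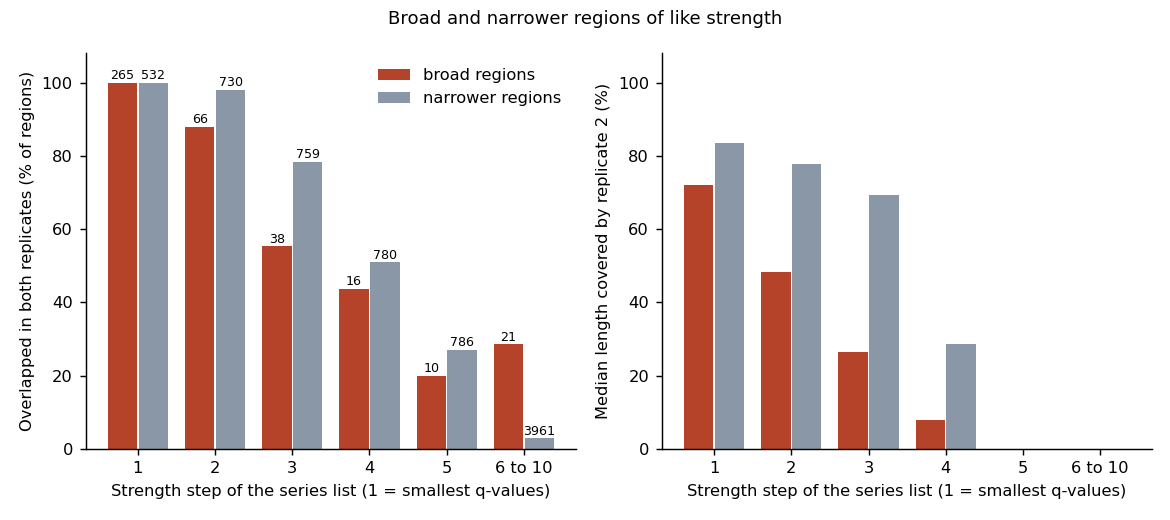
The left panel plots the share of regions overlapped in both replicates (% of regions) and the right panel the median length covered by replicate 2 (% of the region), by strength step of the series list, for broad regions (red) and narrower regions (grey), with the number of regions above each bar of the left panel. In steps 2 to 4 both bars of the broad regions are below those of the narrower regions, in steps 6 to 10 (joined) the broad bar is above with 28.6% against 2.83%, and from step 5 on both medians are 0.

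Overlap by a single base says little about a wide region, so the covered length was measured as well. Replicate 1 covered a median of 89.9% of the length of a broad region, with quartiles of 73.8 and 97.1%. Replicate 2 covered a median of 65.6%, with quartiles of 38.2 and 82.4%. At least 50% of the length was covered in replicate 1 for 384 broad regions (92.3%, against 79.3% of all regions) and in replicate 2 for 271 (65.1%, against 34.1%). Both replicates covered at least 50% in 260 (62.5%, 95% interval 57.7 to 67.2%), against 32.4% of all regions.

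Coverage by replicate 2 was also set out within the strongest step, where every region was found in both lists. There at least 50% was covered in replicate 2 for 219 of 265 broad regions (82.6%, interval 77.5 to 87.0%), against 525 of 532 narrower regions (98.7%, interval 97.3 to 99.5%). The median covered by replicate 2 was 72.0% in broad and 83.6% in narrower regions of this step. The median covered by replicate 1 was 93.8% in broad and 94.1% in narrower regions. In step 2 the median covered by replicate 2 was 48.4% in broad regions, against 77.7% in narrower ones, and for replicate 1 it was 76.1% against 93.5%.

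**Figure D2:**
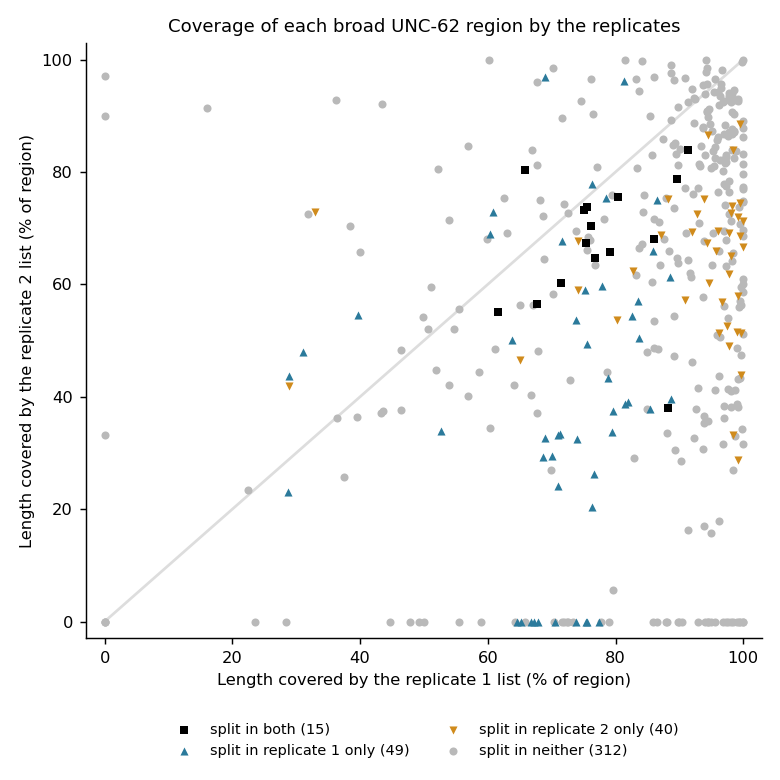
Each point is 1 of the 416 broad regions, with the share of its length covered by the replicate 1 list on the x axis and by the replicate 2 list on the y axis (both % of the region); symbols mark regions holding 2 or more separate regions of a replicate list. Most points lie to the right of the diagonal, where replicate 1 covers more, and a row of 54 points at 0 on the y axis has no replicate 2 region.

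The edges of the series regions lay outside those of the replicates. Counting both ends of each matched broad region, the outermost replicate 1 edge lay a median of 21.5 bp inside the series edge, and 15.7% of 820 edges reached beyond it. For replicate 2 the median was 74.5 bp inside, and 5.25% of 724 edges reached beyond it.

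Many members of the width class were not unbroken over 800 bp in both replicates. An unbroken stretch of 800 bp or more inside the series region was present in replicate 1 for 254 broad regions (61.1%), in replicate 2 for 120 (28.8%) and in both for 103 (24.8%), against 3.19, 1.51 and 1.29% of all regions, most of which are too narrow to hold one. Counted from the replicate lists themselves, 270 regions of replicate 1 were 800 bp or wider, of which 255 overlapped a broad region of the series list (94.4%). The corresponding numbers for replicate 2 were 132 and 128 (96.97%). In replicate 1, 13 of the remainder met only narrower series regions and 2 met none. In replicate 2, 3 met only narrower ones and 1 met none.

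The regions without a series match, named after their values were seen, lay at a pair of places. On III both replicates listed an 869 bp region, from 1299606 to 1300474 in replicate 1 (q-value 2.13e-08) and from 1299607 to 1300475 in replicate 2 (q-value 7.91e-11), and the series list has no region there. The other one, in replicate 1, was IV 15552569 to 15553386 (q-value 0.000679).

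Splitting was counted next. A broad region was called split in a replicate if it held 2 or more separate regions of that list. Most broad regions were single in both: 265 of 416 (63.7%) held exactly 1 region of each replicate. Replicate 1 split 64 (15.4%, 95% interval 12.1 to 19.2%), against 1.18% of all regions, and replicate 2 split 55 (13.2%, interval 10.1 to 16.9%), against 0.741% of all regions. In all, 104 (25%) were split in at least 1 replicate, against 1.72% of all regions. A narrow region has little room for a gap of over 200 bp, so splits follow width by construction. Within the broad regions the share split in replicate 1 was 5.34% at 800 to 999 bp, 20% at 1000 to 1499 bp, 40.5% at 1500 to 1999 bp and 34.8% at 2000 bp or more. In replicate 2 it was 4.85, 15.3, 24.3 and 56.5% in the same classes.

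The breaks were short, and most split regions were split in a single replicate. In replicate 1 the 66 gaps between pieces had a median of 241 bp (quartiles 215.25 and 283 bp, longest 1067 bp), and in replicate 2 the 58 gaps had a median of 270.5 bp (quartiles 240.25 and 341.25 bp, longest 941 bp). Both replicates split 15 broad regions (3.61%, against 0.201% of all regions). These are 15 of the 55 split in replicate 2, whereas replicate 1 split 64 of all 416. Splits follow width in both replicates, and these shares were not compared at like width. In 14 of these 15 a gap of one replicate overlapped a gap of the other. Elsewhere replicate 1 mostly ran across the breaks of replicate 2. Of the 58 gaps in replicate 2, 41 were covered from end to end by a replicate 1 region, 14 in part and 3 not at all. Of the 66 gaps in replicate 1, replicate 2 covered 11 from end to end, 23 in part and 32 not at all.

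The 10 widest regions show these patterns one by one. The first is V 4498493 to 4511955 (13463 bp, listed q-value 0). In replicate 1 it was a single region of 13251 bp with a listed q-value of 0. In replicate 2 it was broken by 1 gap of 301 bp into pieces of 4679 bp (q-value 8.63e-87) and 6608 bp (q-value 4.12e-173). The next, V 4492376 to 4497505 (5130 bp, q-value 2.87e-75), lies just before it and was the most divided broad region. It held 4 replicate 1 pieces, the strongest 2432 bp long (q-value 6.66e-28), and 3 replicate 2 pieces, the strongest 2142 bp long (q-value 6.48e-16). Its breaks lay at different places in the lists, as no gap of replicate 1 overlapped a gap of replicate 2. It is the 1 region of the 15 split in both replicates without such an overlap. The longest gap was 478 bp in replicate 1 and 338 bp in replicate 2. The gene table used for names places unc-62 itself on chromosome V (assembly WBcel235). Whether these regions lie at unc-62 was not tested. The strain also carries unc-62 in its transgene, and whether that affects the values of these regions was not tested either.

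Next in width was I 7711507 to 7715158 (3652 bp, q-value 1.71e-179). Replicate 1 divided it into pieces of 1561 and 1774 bp, and replicate 2 into pieces of 1512, 425 and 2065 bp. The last of these ran 938 bp past the end of the series region, with 1127 bp inside it. The first break fell at nearly the same place in both lists, after base 7713086 in replicate 1 and after base 7713090 in replicate 2. X 10146338 to 10149678 (3341 bp, q-value 4.08e-51) was single in both lists, but the replicate 2 region covered 37.9% of it, against 84.9% for replicate 1. IV 3231488 to 3234738 (3251 bp, q-value 7.26e-145) was a single replicate 1 region covering 95.7% (q-value 3.17e-104). Replicate 2 held 3 pieces there covering 66.0%, with gaps of up to 680 bp.

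The sixth stands apart from the others. III 13778097 to 13781245 (3149 bp) had a q-value of 1.96e-07, which placed it at rank 4092 of the list, whereas the other 9 had ranks of 421 or better. Replicate 1 had no region there. Replicate 2 covered 97.1% of it with 1 region whose q-value, 0.000961, was close to the limit of that list. The end of that replicate 2 region, 12 bp past the series end, is the highest position reached on chromosome III in the 3 lists.

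Of the last 4, II 14249096 to 14251870 (2775 bp, q-value 4.87e-87) was whole in replicate 1, with 99.7% covered, and in 2 pieces covering 43.9% in replicate 2. The reverse held for II 9059799 to 9062567 (2769 bp, q-value 5.58e-81) and II 4574386 to 4577148 (2763 bp, q-value 2.9e-39), which replicate 1 broke by gaps of 305 and 228 bp and replicate 2 spanned with 1 region each. X 11605215 to 11607866 (2652 bp, q-value 1.47e-171) was a single replicate 1 region (q-value 9.08e-128) and 2 replicate 2 pieces with a gap of 620 bp. Outside the 10 widest, the widest region with 2 replicate 1 pieces was II 9619152 to 9621718 (2567 bp, q-value 2.49e-137), which also had 2 pieces in replicate 2.

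**Figure D3:**
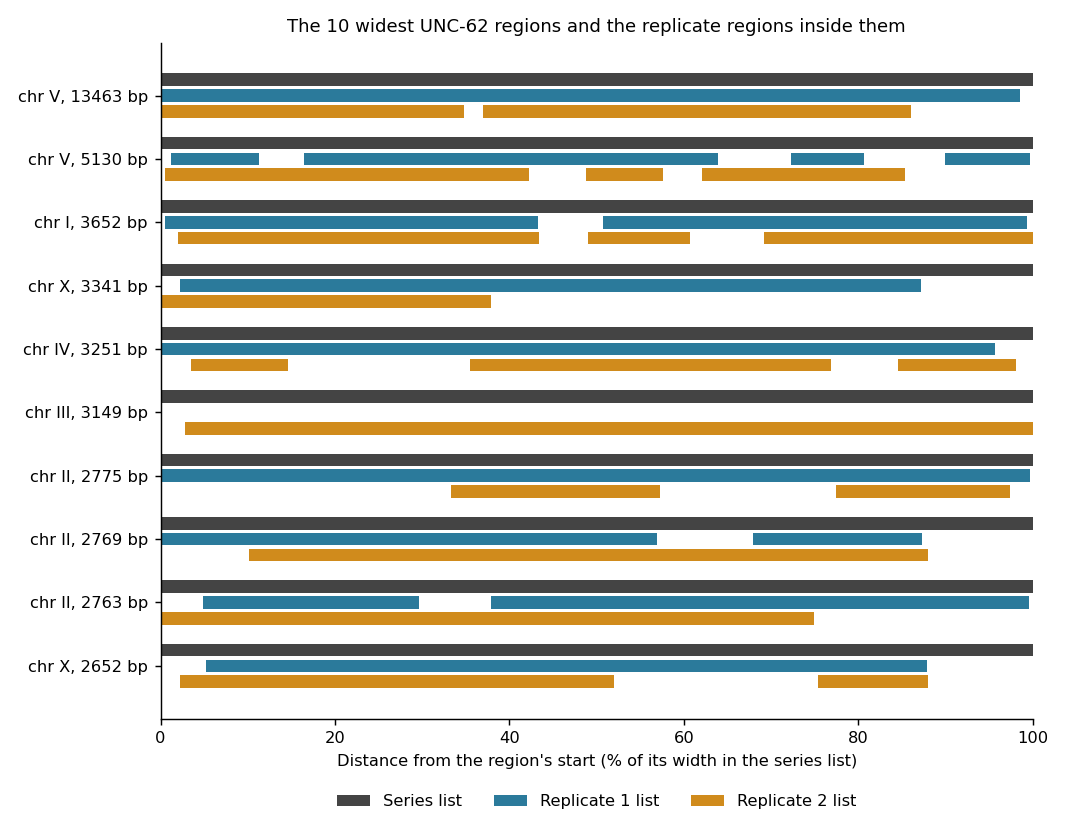
Bars show the 10 widest broad regions, widest at the top, with the series region in dark grey and the regions of replicate 1 (blue) and replicate 2 (orange) inside it; the x axis is the distance from the region's start as % of its width. Replicate 1 spans the first region whole and replicate 2 leaves 1 gap of 301 bp in it, and the sixth region has no replicate 1 bar.

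Every broad region missing from a replicate lay outside the strongest step. The widest without a replicate 2 region were I 11090981 to 11092448 (1468 bp), I 527112 to 528540 (1429 bp), I 130239 to 131543 (1305 bp), I 8045958 to 8047243 (1286 bp) and II 13022165 to 13023351 (1187 bp). Their series q-values ran from 4.5e-20 to 3.9e-07 and their replicate 1 q-values from 6.63e-12 to 0.000748. Chromosome I held 13 of the 51 broad regions found in replicate 1 alone (25.5%, interval 14.3 to 39.6%), against 18.4% of all series regions found in replicate 1 alone. Besides the region on III, 5 broad regions had no replicate 1 region. X 4124677 to 4125605 (q-value 0.000197), II 5046141 to 5046995 (q-value 4.53e-07) and IV 12130569 to 12131385 (q-value 1.79e-05) had none in either replicate. X 16376001 to 16376853 and X 16373086 to 16373937 were found in replicate 2, the one with a q-value of 4.34e-05 and the other with 2.38e-09.

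The q-value was smaller in replicate 1 than in replicate 2 in 340 of the 359 broad regions found in both (94.7%, 95% interval 91.9 to 96.8%), against 2274 of 2564 narrower regions (88.7%, interval 87.4 to 89.9%). A q-value reflects depth and enrichment together, so this does not measure binding. Of the 19 broad regions with the smaller q-value in replicate 2, 8 were on X (42.1%, interval 20.3 to 66.5%), against 83 of the 359 found in both (23.1%), and 3 of these 8 lie in 1 stretch of X described below. The strongest of the 19 was IV 10935247 to 10936498 (1252 bp), where replicate 1 had 1.31e-33 and replicate 2 had 1.16e-37.

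A few broad regions were stronger in each replicate than in the series list. This held for 5 of the 359 found in both (1.39%, interval 0.454 to 3.22%), against 3 of 2564 narrower regions (0.117%, interval 0.0241 to 0.342%). The clearest was III 10224450 to 10225340 (891 bp), where replicate 1 had 1.68e-13, replicate 2 had 8.51e-17 and the series list had 0.000512, and it was the weakest of all broad regions. V 5284006 to 5285456 (1451 bp) had 1.78e-14 in replicate 1 and 2.04e-08 in replicate 2, but 8.73e-05 in the series list. The others were III 7446778 to 7447878, X 14908421 to 14909484 and V 264909 to 265849. In all 5 the nearest other region was over 5 kb away. Each of the 5 was overlapped by 1 region of each replicate.

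Broad regions lay close to other regions. The median gap from edge to edge to the nearest other region of the series list was 800.5 bp for broad regions, against 2079.5 bp for narrower ones. A neighbour within 2 kb was present for 317 broad regions (76.2%, 95% interval 71.8 to 80.2%), against 48.9% of narrower regions (interval 47.7 to 50.01%) and 50.3% of all regions. Within 500 bp the shares were 36.8% of broad and 14.1% of narrower regions, against 15.3% of all. Strength moves with this: within the strongest step, 77.7% of broad regions (interval 72.2 to 82.6%) and 56.4% of narrower ones (interval 52.1 to 60.7%) had a neighbour within 2 kb. By width the share was 57.0% at 400 to 599 bp, 65.3% at 600 to 799 bp, 71.4% at 800 to 999 bp and 78.7% at 1000 to 1499 bp. The share thus followed width on both sides of the limit without a step at 800 bp. The part of strength in this order was not tested beyond the strongest step.

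**Figure D4:**
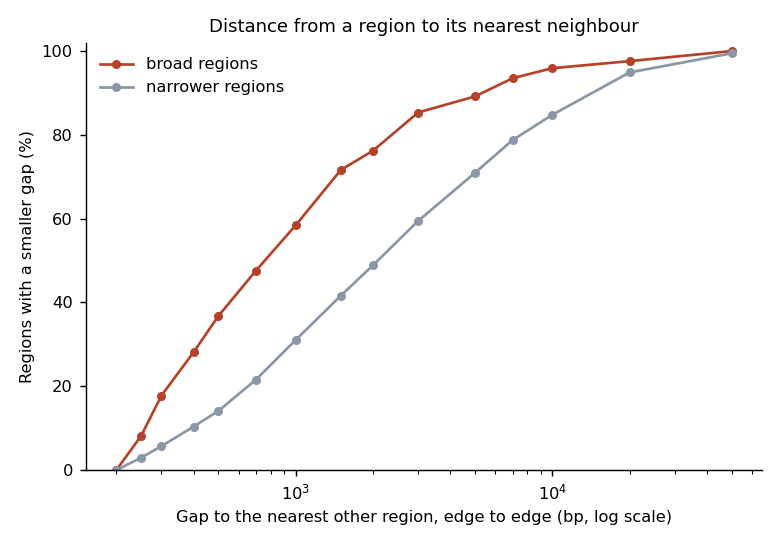
The curves give the share of regions (%) whose gap to the nearest other region of the series list, edge to edge, is smaller than the distance on the x axis (bp, log scale), for broad (red) and narrower (grey) regions. The broad curve is above the narrower one from 250 bp on, with 36.8% against 14.1% at 500 bp and 76.2% against 48.9% at 2 kb.

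Joining all series regions under 2 kb apart gave 5449 stretches, of which 349 held a broad region. Of the broad regions, 99 (23.8%) were alone in their stretch, against 51.1% of the narrower regions. At least 1 further broad region was present in the stretch of 111 broad regions (26.7%), spread over 44 stretches. Of the narrower regions, 582 (7.71%) shared a stretch with a broad region. By chromosome the share of broad regions with a further broad one ranged from 21.6% on X to 36.1% on V.

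The stretch with the most broad regions was on II, from 6820950 to 6845307, where 10 of 19 regions were broad. They were 835 to 1451 bp wide, and all 10 were overlapped in both replicates. Replicate 1 covered 55.4 to 100% and replicate 2 covered 50.6 to 93.9% of each. They are not all separate in the replicates, since II 6826638 to 6828042 and II 6828300 to 6829750 were matched by the same replicate 1 region (q-value 8.51e-89). Their q-values in the series list ran from 6.5e-66 to 8.48e-22. The only member with a smaller q-value in replicate 2 was II 6836132 to 6837322, with 6.18e-11 in replicate 1 and 6.72e-16 in replicate 2.

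Next was a stretch on X, from 16343357 to 16380394, with 7 broad regions among 30. Its members were weaker, with series q-values from 1.21e-23 to 1.09e-10, and the replicates differed on them more. Replicate 1 covered 0 to 67.8% and replicate 2 covered 33.2 to 91.4% of each. Of the 7, 5 were found in both replicates and 2 in replicate 2 alone, so 2 of the 3 broad regions that replicate 2 alone contained are in this stretch. In 3 of the 5 found in both, replicate 2 had the smaller q-value, as at X 16364944 to 16366202, with 0.000529 in replicate 1 and 8.21e-13 in replicate 2.

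The V stretch from 4486612 to 4512470 held 4 broad regions, 1415 to 13463 bp wide, all found in both replicates. A stretch on X, from 14557211 to 14566442, held 4 as well. Of these 3 were found in both replicates, and X 14561002 to 14561961 was in replicate 1 only, in 2 pieces.

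The chromosomes carried 56 to 97 broad regions each. X held 97 (23.3% of broad regions, 95% interval 19.3 to 27.7%), against 19.1% of narrower regions (interval 18.2 to 19.98%). II held 81 (19.5%, interval 15.8 to 23.6%), against 15.8% (interval 14.98 to 16.6%). Within the strongest step X held 21.5% of broad and 22.4% of narrower regions, and II held 19.6 and 15.6%. By width the X share was 23.2% at 400 to 599 bp, 28.2% at 600 to 799 bp and 25.7% at 800 to 999 bp. It was 21.3% at 1000 to 1499 bp, 13.5% at 1500 to 1999 bp and 30.4% at 2000 bp or more. The X share thus did not rise at the 800 bp limit. Of the regions of 800 bp or more in the replicates' own lists, II held 16.7% in replicate 1 (interval 12.4 to 21.7%) and 13.6% in replicate 2 (interval 8.29 to 20.7%). Both intervals include the 19.5% of the series list and also the 15.8% of its narrower regions, so they cannot tell these apart. The 13.6% of replicate 2 lies below the interval of the series share. I and V held 61 each, III 60 and IV 56. Chromosome lengths were taken as the highest region end in any list. By length X carried 5.49 and II 5.3 broad regions per Mb, followed by III with 4.35, I with 4.07, IV with 3.2 and V with 2.92.

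As a share of a chromosome's own regions, broad ones ranged from 4.37% on I (interval 3.36 to 5.58%) to 6.36% on II (interval 5.08 to 7.85%), with 6.31% on X (interval 5.15 to 7.64%). The intervals of all chromosomes overlap one another, those of I and II included. Without the dense stretch on each, the share was 5.66% on II and 5.97% on X. V, which had the fewest broad regions per Mb, had 19.5% of its covered length in broad regions, second to II with 20.7%. The single region of 13463 bp belongs to V.

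**Figure D5:**
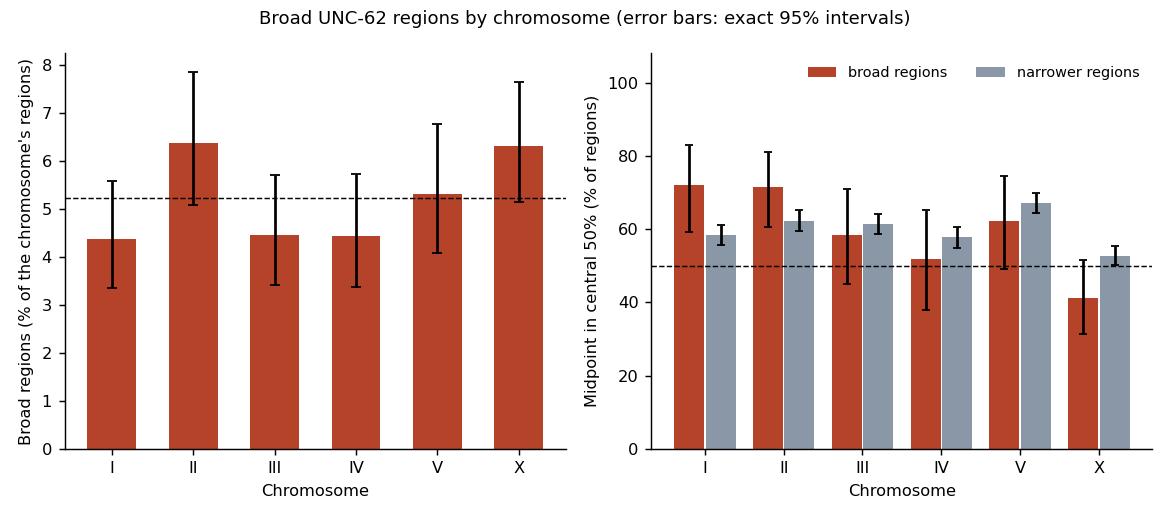
The left panel plots broad regions as % of the regions of each chromosome, with the value over all chromosomes (5.22%) as a dashed line, and the right panel the % of broad (red) and narrower (grey) regions with a midpoint in the central 50% of the chromosome, with 50% as a dashed line; error bars are exact 95% intervals. On X 41.2% of broad regions lie in the central part, and on the autosomes the values run from 51.8% on IV to 72.1% on I.

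Along the chromosomes, broad regions of the autosomes lay in the central 50% of the length in 63.9% of cases (204 of 319, 95% interval 58.4 to 69.2%), close to the 61.2% of narrower regions (interval 59.996 to 62.5%). Of all series regions, 59.6% were central. On X the share was 41.2% for broad regions (40 of 97, interval 31.3 to 51.7%), against 52.7% for narrower ones (interval 50.1 to 55.3%). Without the dense X stretch, which lies outside the central part, it was 44.4% for broad regions (interval 33.96 to 55.3%), against 53.6% for narrower ones. I and II had the highest central shares of broad regions, 72.1 and 71.6%, against 58.4 and 62.3% of narrower ones. The order was the other way on III, IV and V. There the broad shares were 58.3, 51.8 and 62.3%, against 61.4, 57.8 and 67.2% of narrower regions. On X, the last 10% of the length alone held 16 of the 97 broad regions (16.5%), against 9.51% of the narrower ones. Of these 16, 7 are the members of the dense X stretch, and without it 9 of 90 remained (10.0%, interval 4.68 to 18.1%), against 8.05% of the narrower regions.

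By chromosome, the share of broad regions found in both replicates ran from 78.7% on I (48 of 61) to 93.3% on III (56 of 60), where the shares of all series regions were 32.5% on I and 37.3% on III. Replicate 1 split 7 of 97 broad regions on X (7.22%), against 57 of 319 on the autosomes (17.9%), and of all series regions 0.781% on X and 1.28% on the autosomes. Replicate 2 split 16 of 97 on X (16.5%), against 39 of 319 on the autosomes (12.2%), and of all series regions 1.11% on X and 0.653% on the autosomes. These differences were not tested.

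Of the 4 broad regions with a midpoint within 50 kb of the ends of the spanned lengths, 3 were in replicate 1 only, namely I 14945244 to 14946294, I 14947743 to 14948823 and II 15255475 to 15256301. The remaining one is the 3149 bp region of III, whose own replicate 2 match sets the length used for III.

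The kinds of genes at broad regions were not analysed here. Gene positions were at hand for the assembly WBcel235, whereas the regions are on WS220, and positions were not compared across builds. For the same reason no gene list, promoter or motif was counted, and no sequence is shown.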

How the data were processed

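Regions were read from 3 lists deposited by the authors, on the WormBase WS220 build per the file headers and made with PeakSeq, which the deposited files name in their source field. The value of each region is read as a q-value (a corrected p-value), which the deposited lists do not name. Not given in the sources used here are the aligner, the PeakSeq version, the control and the making of the series list. Start and end positions are the authors' own.

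Width was end minus start plus 1. Lists were matched by at least 1 bp of overlap, gaps are bases between edges, and ranks are within a list. Intervals are exact 95% Clopper-Pearson intervals (SciPy 1.17.1, Python 3.11.15), covering counting over regions only. Matching, coverage and gap functions were tested on simulated data, where they returned the made values in all 1200 regions. Members, gene lists and the rule for named regions (the 10 widest, the 5 widest missing from each replicate, the 5 with most pieces per replicate, the 3 on either side of the limit) were chosen with earlier results of these data known. Other regions named were chosen after their values were seen. Planned counts of genes, base composition and motifs were not run, for want of an annotation on the build of the lists.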

Additional observations from a re-analysis of the deposited data

How the results depend on the processing

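Of 83 alternatives over 14 results, 62 stayed within 1.5 times the count or within the interval of the share, and 21 did not. The number of broad regions was 944 at a limit of 600 bp, 210 at 1000 bp and 744 with regions under 500 bp apart joined (added after the data were seen), against 416, since the limit sets the count. The share found in both replicates was 77.3% at 600 bp, 90.5% at 1000 bp and 62.5% with at least 50% covered, against 86.3%; counted in 1 replicate alone it ranged from 87.0 to 98.6%. The share split in replicate 1 (15.4%) was 9.22% at 600 bp, 25.2% at 1000 bp, 10.8% with replicate 1 held to q-values under 0.001 and 3.37% with pieces under 300 bp apart joined, also added later. That split in replicate 2 (13.2%) was 6.25, 21.4 and 5.29% at 600 bp, at 1000 bp and with pieces joined. Joining at 100 bp changed nothing, since no gap is that short. A neighbour was present for 70.1% at 600 bp and 81.0% at 1000 bp, and for 58.4% within 1 kb and 89.2% within 5 kb, against 76.2%; for narrower regions the values within 1 and 5 kb were 31.1 and 71.0%. Taken from 1 replicate's list alone, II held 13.6 to 16.7% of broad regions, against 19.5%, and the autosomal central share was 57.4 to 63.2%, against 63.9%. In the central 40% it was 52.7%, against 50.2% of narrower regions. The cause was not tested. The shares of the other 5 chromosomes and the X central share stayed within their intervals under every alternative run. Leaving out the V stretch, added later too, moved none of the shares tried beyond its interval, nor did leaving out the dense X stretch for the X shares (added later). No paired analysis was possible because no test was run and only the ChIP replicates have a list here. The alternatives for genes, base composition and motifs were not run. Depth is unknown, so its effect on replicate 2 cannot be stated.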
